A study of Sus scrofa with 16 samples.

Results

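Pyruvate stands at a branch point of heart muscle metabolism, and 9 genes that set its fate in the mitochondrion were followed in the infarcted pig heart: PC, PDK1, PDK2, PDK3, PDK4, PDHA1, PDHB, DLAT and PDHX. A probe set, the group of array probes that together measure a transcript, was taken when its only annotated gene symbol was that of one of these genes. This gave 8 probe sets for 6 genes, out of 23999 probe sets and 6765 genes with a symbol on the array. PC, PDHA1, PDHB and DLAT had 1 probe set each, and PDK3 and PDK4 had 2 each. PDK1, PDK2 and PDHX had no probe set with that symbol alone and are not analysed here.

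Pyruvate that enters the mitochondrion can be carboxylated to oxaloacetate by pyruvate carboxylase, a biotin enzyme encoded by PC, which refills the citric acid cycle. It can also be oxidised to acetyl-CoA by the pyruvate dehydrogenase complex, which commits it to combustion. Pyruvate dehydrogenase kinases phosphorylate the complex and switch it off. PDK4 is the kinase best known for its strong response to fasting and to fatty acid supply in heart and skeletal muscle, where it spares glucose carbon while fat is burned.

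Left ventricular RNA of 16 Yorkshire x Landrace swine aged 2 to 3 months was measured 3 weeks after they had undergone surgery that produced a myocardial infarction (MI, n = 8) or served as its sham control (n = 8). Both groups were made up of 4 labelled females and 4 labelled males, the males neutered, and 1 Affymetrix porcine array was run for each animal. It is not stated from which part of the ventricle the tissue came or how far it lay from the infarct, so MI stands for a left ventricle after infarction and not for a defined zone. MYH7 and MYL2, which encode cardiac myosin chains, had mean log2 signals of 14.53 and 14.62 in sham animals, near the highest value of 14.92 on any array. In whole tissue, fewer cells of a type and less RNA per cell cannot be told apart.

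All 16 arrays had the same median log2 signal of 6.24. The highest value of 23 control probe sets without target RNA was 4.99 and served as the background. The poly-A spike-ins, foreign RNAs added before labelling, differed from the hybridisation controls by -2.58 to -1.58 on the log2 scale in 11 arrays (set A) and by -4.82 to -3.82 in 5 arrays (set B: MI 7, MI 8, Sham 6, Sham 7 and Sham 8). The log2 ratio of the 3′ to the 5′ actin probe sets, a measure of RNA or labelling quality, was 2.64 ± 0.29 (SD) in set A and 1.42 ± 0.14 in set B. It was 2.39 ± 0.59 in MI and 2.12 ± 0.68 in sham animals (exact permutation test, two-sided p = 0.394, n = 8 each). The animal labelled MI 7, a female by its label, had an EIF1AY signal of 9.51, against 9.40 to 9.96 in the labelled males and 3.00 to 3.51 in the other labelled females. The comparisons of the sexes are therefore also given without MI 7, and PC and PDK4 also within each set.

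The first comparison asked which of these genes differed between infarcted and sham hearts. PC, the carboxylase, fell after infarction, while none of the dehydrogenase subunits and neither of the measured kinases passed the test. The mean log2 signal of PDK4 was higher in MI animals at both probe sets, with a spread between animals that left it short of the threshold. Of the 8 probe sets 1 passed at an adjusted p under 0.05 (limma, Benjamini-Hochberg over all 23999 probe sets), and 10.5% of all probe sets did, 5.14% as lower. At an unadjusted p under 0.05 the members that passed were the probe set of PC and the brighter probe set of PDK4, where 23.6% of all probe sets passed.

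PC (Entrez 397630) lies at chr2:5566608-5587797 of Sscrofa11.1 by the RefSeq annotation, and the span of LRFN4 (chr2:5576625-5579397) falls inside it. Its log2 signal in sham animals had a lowest value of 6.76, a median of 6.91 and a highest of 7.05. In MI animals the lowest value was 6.11, the median 6.31 and the highest 6.67. Every MI animal lay below every sham animal, with a gap of 0.09 between the groups; 1.39% of all probe sets showed all MI below all sham. The means were 6.33 ± 0.23 in MI and 6.90 ± 0.09 in sham (SD, n = 8 each). The difference of -0.57 on the log2 scale (SE 0.08, 95% confidence interval -0.74 to -0.39) is a 1.48-fold lower signal, with an adjusted p of 0.00048 in limma. PC stood at rank 220 of all probe sets by p, so that 0.913% of them had a lower p. The MI animals were more spread out than the sham animals: MI 2, MI 3, MI 4 and MI 5 lay between 6.11 and 6.18, and MI 1, MI 6, MI 7 and MI 8 between 6.44 and 6.67.

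**Figure D1:**
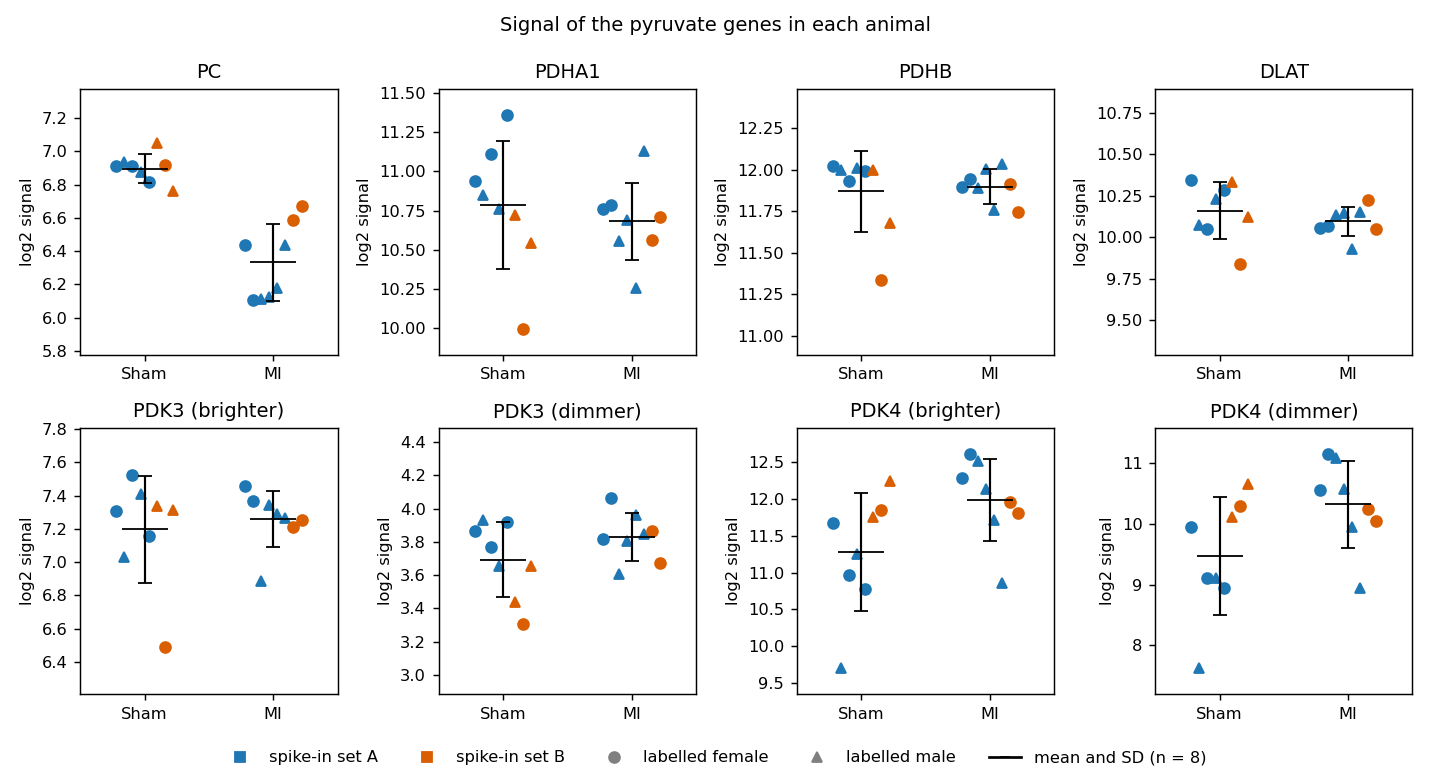
Log2 signal of the 8 probe sets (y axis, a scale of its own in each panel) in 8 sham and 8 MI animals; colour marks the spike-in set, shape the labelled sex, and bars the mean and SD. For PC all MI points lie below all sham points, for PDK4 the MI mean is higher but the groups overlap, and for the other genes the groups lie over one another.

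The catalytic core of the pyruvate dehydrogenase complex showed no difference that passed the test. PDHA1 encodes the alpha subunit of the first enzyme of the complex, the subunit that the kinases phosphorylate; it lies on the X chromosome (Entrez 100294678, chrX:15699924-15718908, overlapping MAP3K15). Its log2 signal ranged from 10.25 to 11.13 in MI animals (median 10.70) and from 9.99 to 11.36 in sham animals (median 10.81). The sham range enclosed the MI range. The difference was -0.11 (SE 0.16, interval -0.46 to 0.24, limma adjusted p = 0.765). It was -0.25 without Sham 7 (adjusted p = 0.192), -0.021 without Sham 5 (adjusted p = 0.962) and -0.26 within the 11 arrays of set A (adjusted p = 0.296).

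PDHB encodes the beta subunit of the same enzyme (Entrez 100516042, chr13:40161519-40167502). Its log2 signal ranged from 11.74 to 12.03 in MI animals (median 11.90) and from 11.34 to 12.02 in sham animals (median 11.99). All MI animals but 1 lay inside the sham range, and the difference was 0.03 (SE 0.10, interval -0.18 to 0.23, limma adjusted p = 0.908). DLAT encodes the acetyltransferase that passes the acetyl group to coenzyme A (Entrez 397054, chr9:39738639-39763813). Its log2 signal ranged from 9.93 to 10.23 in MI animals (median 10.10) and from 9.84 to 10.35 in sham animals (median 10.18). The groups overlapped throughout, and the difference was -0.07 (SE 0.08, interval -0.23 to 0.10, limma adjusted p = 0.677). The intervals of PDHA1, PDHB and DLAT did not extend as far as the PC estimate of -0.57 in either direction.

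Among the kinases, PDK3, an isoform best known from testis and brain, lies on the X chromosome (Entrez 100153858, chrX:20486205-20598492). Its brighter probe set ranged from 6.89 to 7.46 in MI animals (median 7.28) and from 6.49 to 7.52 in sham animals (median 7.31). The MI animals lay inside the sham range, and the difference was 0.06 (SE 0.12, interval -0.20 to 0.33, limma adjusted p = 0.825). Its dimmer probe set was above the background of 4.99 on 0 of 16 arrays, with means of 3.83 in MI and 3.69 in sham animals, so it carries little information about the transcript. The probe sets of PDK3 followed each other only loosely over the 16 arrays (r = 0.486, as a description).

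PDK4 (Entrez 100286778) lies at chr9:75246956-75260134, inside the annotated spans of ASB4 (chr9:75110367-75337619) and of the long non-coding RNA LOC106504960 (chr9:75213257-75285241). Its brighter probe set ranged from 10.86 to 12.62 in MI animals (median 12.05) and from 9.70 to 12.24 in sham animals (median 11.46). Its dimmer probe set ranged from 8.94 to 11.15 in MI animals (median 10.40) and from 7.62 to 10.65 in sham animals (median 9.52). At both probe sets 7 of 8 MI animals lay above the sham mean, and at both the groups overlapped widely. The exception was MI 6, the lowest of its group at both, and the lowest sham animal at both was Sham 2.

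For the brighter probe set of PDK4 the means were 11.99 ± 0.56 in MI and 11.28 ± 0.80 in sham (SD, n = 8 each), a difference of 0.71 (SE 0.32, interval 0.02 to 1.40) or 1.63-fold. The limma p was 0.0452 before adjustment and 0.198 after it. For the dimmer one the difference was 0.85 (SE 0.40, interval -0.01 to 1.71) or 1.80-fold, with a limma p of 0.0523 and 0.217 after adjustment. Without Sham 2 alone the differences were 0.45 (adjusted p = 0.306) and 0.56 (adjusted p = 0.35). The probe sets gave nearly the same order of the animals (r = 0.993 over 16 arrays, 0.992 after removing the means of group and sex). They share the same RNA, so they count as 1 observation of PDK4 and not as 2.

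**Figure D2:**
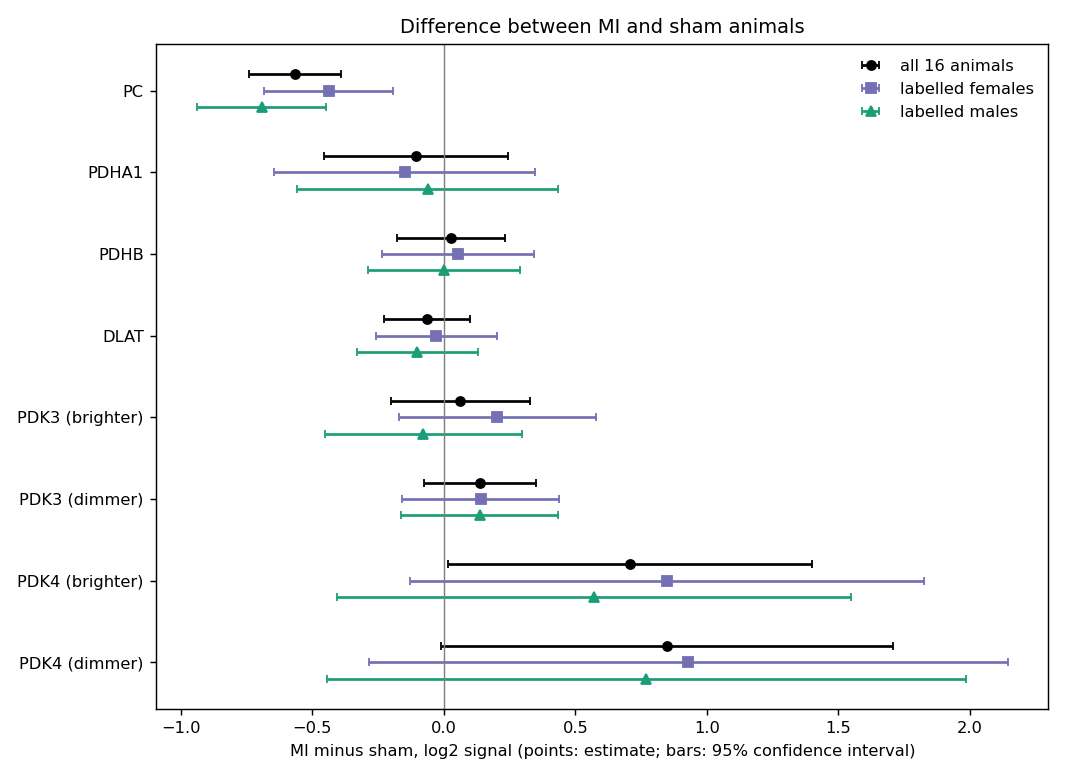
Difference between MI and sham animals in log2 signal (x axis) for each probe set, in all 16 animals, in labelled females and in labelled males; points are limma estimates and bars 95% confidence intervals. The interval of PC lies wholly below 0 in all rows, and the intervals of PDK4 are the widest.

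PDK4 varied more between animals than almost any other transcript on the array. The SD between animals of the same group and sex was 0.73 at its brighter and 0.91 at its dimmer probe set, larger than in 99% and 99.5% of all probe sets. Against the 1000 probe sets closest in mean signal, 99.4% and 99.7% had a smaller SD. PC had an SD of 0.16, with a smaller one in 34.2% of all probe sets and in 17.8% of the 1000 of like signal. For DLAT the SD was 0.15 (27.2% and 18.4%), for PDHB 0.20 (51.4% and 53.9%) and for PDHA1 0.36 (87.4% and 83.4%). A difference of 0.71 thus equalled about 1 within-group SD of PDK4, and the smaller one of PC exceeded 3 SDs of PC.

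**Figure D3:**
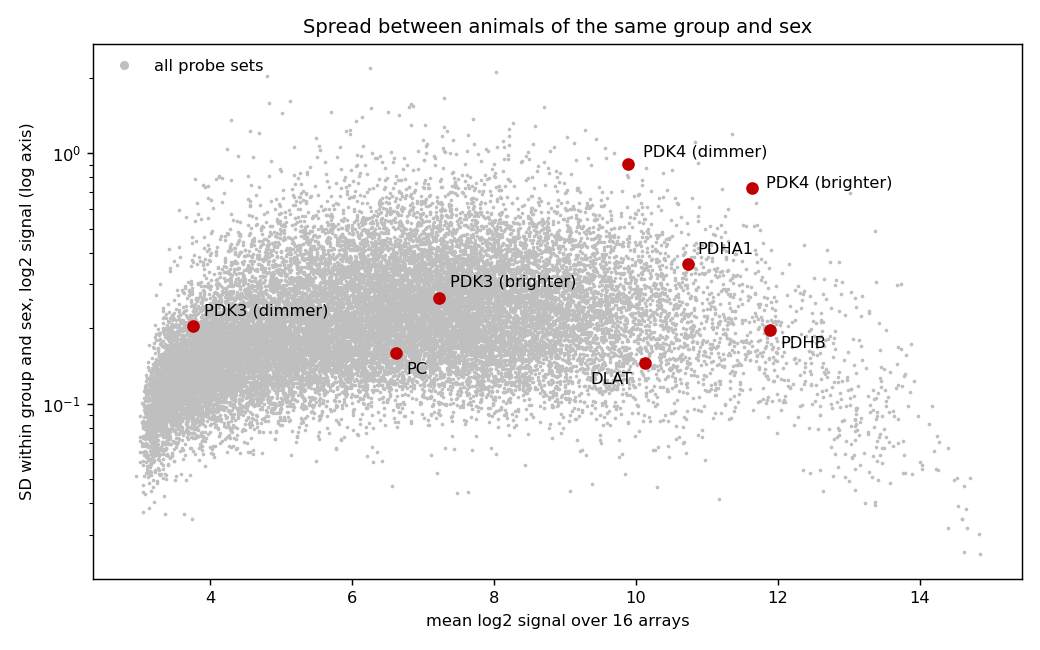
SD between animals of the same group and sex (y axis, log scale) against mean log2 signal (x axis) for all probe sets (grey) and those of the 6 genes (red). Both probe sets of PDK4 lie at the upper edge of the cloud, at 0.73 and 0.91, while PC (0.16) and DLAT (0.15) lie in its lower part.

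PC and PDK4 were then looked at within each spike-in set. In set A, PC was 6.23 ± 0.16 in MI (SD, n = 6) and 6.89 ± 0.05 in sham animals (n = 5). In set B the MI animals had 6.59 and 6.67, and the sham animals 6.76, 6.92 and 7.05. PC was thus below every sham animal of its own set in every MI animal. This order had to follow from the order over all animals given above, so it is no separate check for an effect of the set. Within set A 3 of the 8 probe sets passed, that of PC and both of PDK4, where 9.68% of all probe sets did. PC passed there with each of the 11 animals left out in turn (differences -0.73 to -0.57, limma adjusted p 0.00334 to 0.0187). In set B alone, with 2 MI and 3 sham animals, the PC difference was -0.28 (limma adjusted p = 0.53), and 1 of 23999 probe sets passed. That fit held group alone, without sex. Both MI animals of set B were labelled female, and Sham 6 and Sham 8 were labelled male. Group and labelled sex therefore cannot be fully told apart there.

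PDK4 was higher in most MI animals of set A and overlapped between the groups in set B. In set A the brighter probe set was at 12.29, 12.62, 12.51, 12.13, 11.72 and 10.86 in MI animals and at 11.68, 9.70, 10.97, 11.25 and 10.78 in sham animals. All of the MI animals except MI 6 lay above all the sham animals of that set. In set B it was at 11.96 and 11.82 in MI animals and at 11.75, 11.86 and 12.24 in sham animals, so the groups there overlapped. The sham animals of set B all stood above those of set A at both probe sets of PDK4, an order seen in 8.42% of all probe sets.

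Within set A the PDK4 difference was 1.32 at the brighter probe set (limma adjusted p = 0.0409) and 1.65 at the dimmer one (adjusted p = 0.0318). These calls depended on single animals. With each of the 11 animals left out in turn, the brighter probe set passed 3 times (differences 0.93 to 1.71, adjusted p 0.0192 to 0.138) and the dimmer one 5 times (1.28 to 2.02, adjusted p 0.0126 to 0.116). The brighter one no longer passed without MI 1 to MI 5 or Sham 2, Sham 3 or Sham 5, and the dimmer one without MI 1, MI 2, MI 4, Sham 2, Sham 3 or Sham 5. In set B alone, in the fit of group without sex, the differences were -0.061 (adjusted p = 0.933) and -0.20 (adjusted p = 0.742). With the set as a block over all animals they were 0.78 (adjusted p = 0.124) and 0.94 (adjusted p = 0.128), where 12.9% of all probe sets passed.

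The difference of the MI effect between the sets was itself tested. For the brighter probe set of PDK4 it was -1.66 (set B minus set A, interval -2.97 to -0.35, limma adjusted p = 0.348), and for the dimmer one -2.24 (interval -3.77 to -0.70, adjusted p = 0.302). For PC it was 0.36 (interval 0.01 to 0.71, adjusted p = 0.453). After adjustment 0 of the 8 probe sets passed this test in limma, and 0.00833% of all probe sets did. The 3 of PC and PDK4 passed at an unadjusted p under 0.05, as 10.8% of all did. The sets also differ in actin ratio, by the values above. The part of RNA or labelling quality in the PDK4 levels was not tested.

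**Figure D4:**
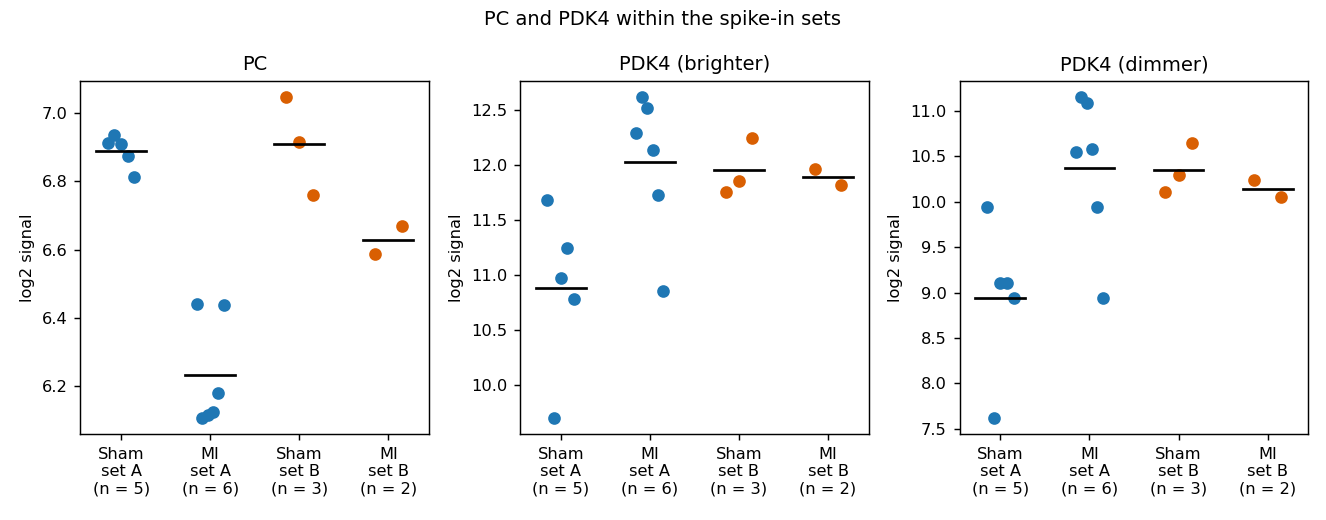
Log2 signal (y axis) of PC and of both probe sets of PDK4 in each animal, split by group and spike-in set (x axis, with n); lines are means. PC is lower in MI animals in both sets, whereas the PDK4 means of MI and sham differ in set A (12.02 and 10.88 at the brighter probe set) and nearly coincide in set B (11.89 and 11.95).

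The fall of PC was next examined in each labelled sex. In males PC was 6.21 ± 0.15 in MI and 6.91 ± 0.12 in sham animals (SD, n = 4 each), a difference of -0.69 (SE 0.12, limma adjusted p = 0.00526). It was the 1 of 8 probe sets that passed in males, against 3.4% of all. In females PC was 6.45 ± 0.25 in MI and 6.89 ± 0.05 in sham animals (n = 4 each), a difference of -0.44 (SE 0.12, interval -0.68 to -0.19, limma adjusted p = 0.0549). In females 0 of 8 passed in limma (1 of 8, that of PC, at an unadjusted p under 0.05), against 2.85% of all probe sets (16.2% unadjusted). With each of the 16 animals left out in turn PC passed in males 16 times (-0.77 to -0.65, adjusted p 0.0032 to 0.0223) and in females 2 times, without MI 6 or MI 8 (-0.51 to -0.32, adjusted p 0.0394 to 0.121). The female value was -0.48 without MI 7 (adjusted p = 0.0687) and -0.47 with spike-in set as a block, which did pass (adjusted p = 0.0301). With that block the male value was -0.62 (adjusted p = 0.0142).

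The responses of the sexes were not distinguished for any of these genes. The interaction, female minus male, was 0.25 for PC (SE 0.16, interval -0.09 to 0.60, limma adjusted p = 0.796) and 0.28 for the brighter probe set of PDK4 (SE 0.65, interval -1.11 to 1.66, adjusted p = 0.939). Without MI 7 these were 0.21 (adjusted p = 0.979) and 0.35 (adjusted p = 0.982). Of the 8 probe sets 0 passed, also at an unadjusted p under 0.05; over all probe sets 0 passed after adjustment and 5.68% before it. Females and males differed at none of the 8 probe sets in limma, also before adjustment, where 0.0583% of all probe sets passed after adjustment and 3.11% before it. The female minus male differences ran from -0.08 for PDHB to 0.28 for the dimmer probe set of PDK4. PDHA1 and PDK3 lie on the X chromosome, and their differences were 0.09 for PDHA1, and -0.01 and 0.05 for PDK3. Without MI 7 these were 0.11, 0.0042 and 0.04, and over the 8 probe sets the differences ran from -0.08 to 0.32, with none passing.

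Whether the genes varied together among animals of 1 group was tested over the 15 pairs of the 6 genes in each group, 30 relations in all. None passed after Benjamini-Hochberg adjustment. The pair with an unadjusted p under 0.05 by both measures was PDHB and DLAT, which encode subunits of successive enzymes of the complex, in sham animals: Pearson's r was 0.798 (exact permutation p = 0.0263, adjusted 0.372) and Spearman's rho 0.786 (exact permutation p = 0.0279, adjusted 0.419). Without the 2 animals farthest from the PDHB median r was 0.702. For PDHA1 and PDHB in sham animals r was 0.833 (exact permutation p = 0.0143, adjusted 0.372) but rho only 0.357 (exact permutation p = 0.389), and r was 0.554 without the 2 farthest animals. By rho alone, PDHA1 and PDK4 in sham animals had -0.786 (exact permutation p = 0.0279, adjusted 0.419), with r at -0.502 (exact permutation p = 0.202). PDHB and DLAT in MI animals had a rho of 0.738 (exact permutation p = 0.0458, adjusted 0.458), with r at 0.674 (exact permutation p = 0.0637). Without the 2 MI animals farthest from the PDHB median that r was only 0.167. Sham 7 was the lowest sham animal for PDHA1 (9.99), PDHB (11.34), DLAT (9.84) and PDK3 (6.49), though not for PC or PDK4.

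PC and PDK4 ran in opposite directions among MI animals, short of any threshold. Over the 8 animals r was -0.446 (exact permutation p = 0.274, adjusted 0.685) and rho -0.571 (exact permutation p = 0.151). The 2 animals farthest from the PC median were MI 7 and MI 8, the MI animals of set B. Without them, in the 6 MI animals of set A, r was -0.596 (exact permutation p = 0.169), and in that family of 15 pairs none passed after adjustment. In sham animals r was -0.14 (exact permutation p = 0.737). Set B, and the sham animals of set A, held under 6 animals a group, for which no correlation is given.

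The genes whose pattern was most like that of PC were listed by the correlation of deviations from the 4 means of group and sex over 16 arrays, among 6764 other genes, as a description. The highest values belonged to POLL (0.865), a DNA polymerase of repair; MYH2 (0.828), a fast skeletal myosin; ATP6V0D1 (0.822), a proton pump subunit; TSHR (0.813), the thyrotropin receptor; and PIM3 (0.782), a kinase. The lowest were DPY19L1 (-0.869), COX6A1 (-0.821), a cytochrome oxidase subunit, and BAX (-0.806), which promotes apoptosis. With the spike-in set removed as well, POLL (0.900) and MYH2 (0.863) kept the first ranks, whereas PIM3 went to rank 39. The lowest then were ANGPTL4 (-0.868, against -0.555 before), DPY19L1 (-0.84) and BAX (-0.817). MYH2 rose in MI animals by 0.23 (limma adjusted p = 0.0463) whereas PC fell.

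For PDK4 the highest correlations were with CCDC25 (0.858), DSN1 (0.857), a kinetochore protein, DSPP (0.839), RECQL (0.838), a DNA helicase, and KIAA1191 (0.812). The lowest were CSN3 (-0.909), a milk casein, PXYLP1 (-0.867) and MRAS (-0.832), a small GTPase. With the spike-in set removed, CCDC25 (0.841) and DSN1 (0.837) were still among the highest values, behind FEZ2 (0.889), EIF4E (0.854) and SMNDC1 (0.851). The lowest then were CXXC5 (-0.933), TBCD (-0.924) and CSN3 (-0.898). The 16 arrays are few against 6764 genes, and the arrays share their spike-in sets, so these lists name the nearest patterns and nothing more.

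The other genes around the branch point were counted in lists by role, each gene by its brightest probe set. Over all 6765 genes 279 passed as higher and 237 as lower in limma, 7.63% in all (18.1% unadjusted), with a median difference of 0.005. Upstream, in the supply and exchange of pyruvate, 9 of 15 listed genes were measured and 0 passed (1 at an unadjusted p under 0.05, median difference 0.03). That 1 was SLC16A3, a lactate and pyruvate exporter, at 5.01 ± 0.24 in MI and 4.71 ± 0.36 in sham animals (difference 0.31, adjusted p = 0.196; 0.37 with spike-in set as a block, adjusted p = 0.0189). The sham mean of SLC16A3 lay below the background of 4.99, and its MI mean just above it. PKM, the pyruvate kinase of muscle, had a difference of 0.10 (adjusted p = 0.314). MPC1 and MPC2, which form the carrier that brings pyruvate into mitochondria, had differences of -0.05 and 0.03; LDHA and LDHB, the lactate dehydrogenase subunits, had -0.001 and 0.06. These last 4 were named after their values were seen.

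Around the complex itself, 5 of 14 listed partners were measured and 0 passed in limma, also at an unadjusted p under 0.05 (median 0.07). DLD, the dehydrogenase that the complex shares with its sisters, had a difference of -0.10 (adjusted p = 0.311), and PDP2, a phosphatase that reverses the kinases, 0.11 (adjusted p = 0.335). Of the sister dehydrogenases for other 2-oxo acids 7 of 9 were measured (median -0.01) and 1 rose. That was OGDHL, an oxoglutarate dehydrogenase homologue, at 4.68 ± 0.19 in MI and 4.05 ± 0.15 in sham animals (difference 0.63, adjusted p = 0.000254), with both means below the background of 4.99. OGDH and DLST, which carry the oxoglutarate step in muscle, had differences of -0.13 and -0.07 and did not pass; they too were named after their values were seen.

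Around the carboxylase, 5 of 9 biotin carboxylases and biotin handling genes were measured and 0 passed in limma (1 at an unadjusted p under 0.05, median 0.16). ACACA, the acetyl-CoA carboxylase of fat synthesis, had a difference of 0.25 (adjusted p = 0.0549; 0.26 with spike-in set as a block, adjusted p = 0.0354) at means below background. HLCS, which attaches biotin to PC and the other carboxylases, had 0.16 (adjusted p = 0.319). Of the genes that handle oxaloacetate or refill the cycle 17 of 24 were measured and 0 passed, also at an unadjusted p under 0.05 (median -0.05, range -0.17 to 0.16). The lowest p values there belonged to PCK2, a mitochondrial enzyme that draws on oxaloacetate (0.16, adjusted p = 0.23, below background), and GOT2, the mitochondrial aspartate transaminase (0.11, adjusted p = 0.368).

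Of known regulators of PDK4 transcription 17 of 20 were measured (median -0.06) and 1 rose. PPARG, a fatty acid receptor best known in adipocytes, was at 6.21 ± 0.31 in MI and 5.50 ± 0.32 in sham animals (difference 0.71, adjusted p = 0.0076). Of PPAR target genes of fatty acid use 16 of 22 were measured and 0 passed in limma (1 at an unadjusted p under 0.05, median 0.07). CPT1A, which admits long-chain fatty acids to mitochondria, was at 8.86 ± 0.39 in MI and 8.42 ± 0.36 in sham animals (difference 0.45, adjusted p = 0.0889), and within set A it passed with 0.56 (adjusted p = 0.015). CPT1B, an isoform of CPT1A named after its values were seen, was at 10.68 in MI and 10.74 in sham animals. It had a difference of -0.06 (limma adjusted p = 0.858), and of -0.31 within set A (adjusted p = 0.264). PLIN2, a lipid droplet protein, had 0.28 (adjusted p = 0.333). Of the 16 measured genes of this list 13 had a difference above 0, against 3473 of all 6765 genes. Within set A HADHA, ACADVL, FABP3 and ACSL1 of these 13 had a difference below 0.

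**Figure D5:**
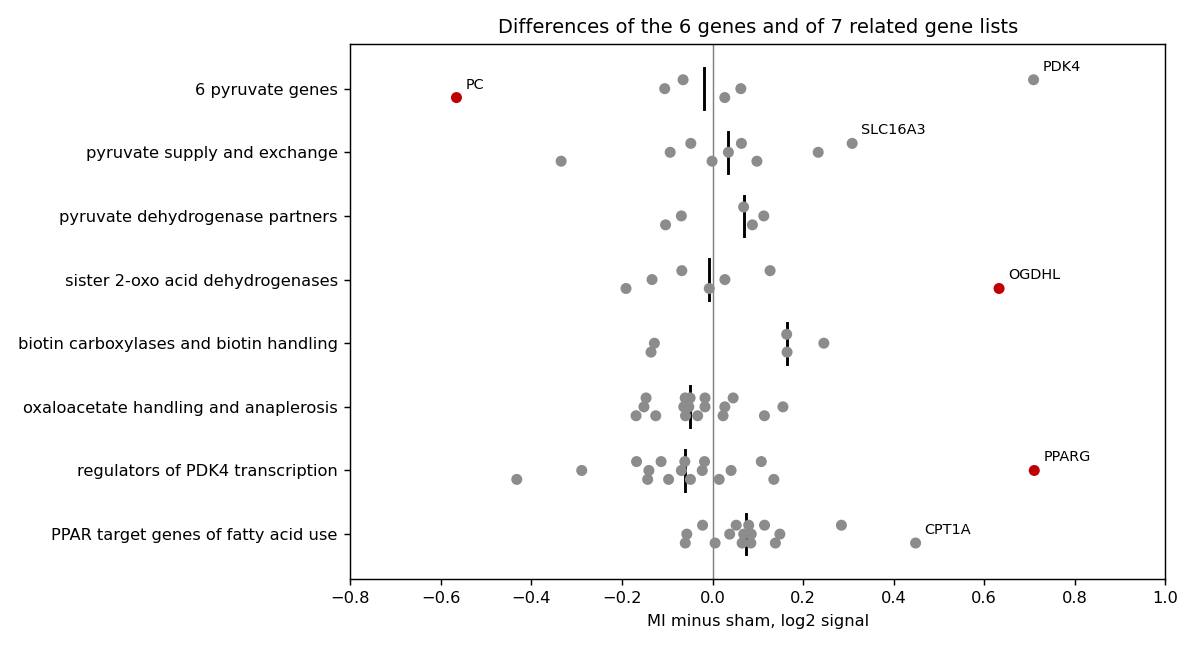
Difference between MI and sham animals in log2 signal (x axis) of each measured gene of 8 lists (rows), by brightest probe set; red points passed at an adjusted p under 0.05 and black bars are list medians. PC, OGDHL and PPARG are the points that passed, and the medians lie between -0.06 and 0.16.

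Some markers of cell types passed in limma over all probe sets, where 7.63% of all genes passed. None of 9 measured cardiomyocyte markers passed, also at an unadjusted p under 0.05; their mean log2 signal per animal was 13.79 to 13.92 in MI and 13.82 to 13.97 in sham animals. Of 7 macrophage and monocyte markers CD14 rose (0.76, adjusted p = 0.00314), with a list mean of 7.50 to 8.10 in MI and 7.50 to 7.95 in sham animals. Of 4 erythroid markers HBM (1.11, adjusted p = 0.00843) and AHSP (0.83, adjusted p = 0.0376) rose, with a list mean of 6.41 to 7.82 against 6.26 to 6.78. ALAS2 (0.59, adjusted p = 0.22) and HBB (-0.06, adjusted p = 0.817), named after their values were seen, did not pass. The sham mean of AHSP, 4.85, lay below the background of 4.99.

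Of 8 adipocyte markers ADIPOQ rose (0.44, adjusted p = 0.0336, below background) and RETN fell (-0.27, adjusted p = 0.0414), with a list mean of 7.74 to 8.17 against 7.78 to 8.13. RETN was near background too, at means of 4.74 in MI and 5.01 in sham animals. Of 3 neuron and Schwann cell markers GFAP rose (0.27, adjusted p = 0.0468), with a list mean of 6.63 to 6.998 against 6.31 to 7.09. S100B (-0.18, adjusted p = 0.551) and UCHL1 (-0.11, adjusted p = 0.76), named after their values were seen, went the other way and did not pass. Of 7 fibroblast, 8 endothelial and 4 smooth muscle markers 0 passed (0, 1 and 0 at an unadjusted p under 0.05). Fibroblast list means were 9.78 to 10.4 in MI and 9.81 to 10.8 in sham animals, endothelial ones 8.51 to 8.93 and 8.09 to 9.23, and smooth muscle ones 10.3 to 11.1 and 10.1 to 11.1. Within set A, where PDK4 and 9.68% of all probe sets passed, the endothelial marker PECAM1 passed too (0.55, limma adjusted p = 0.0213). Over all animals PECAM1 had a difference of 0.27 (adjusted p = 0.344). None of the other endothelial markers passed in set A. CD14 (0.99, adjusted p = 0.003), HBM (1.18, adjusted p = 0.0365) and AHSP (0.92, adjusted p = 0.026) also passed there. ADIPOQ (0.31, adjusted p = 0.241), RETN (-0.32, adjusted p = 0.0504) and GFAP (0.18, adjusted p = 0.234) did not pass there. The part of these cell types in the differences of PC and PDK4 was not tested.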

How the data were processed

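Biotin-labelled cRNA from total RNA was hybridised to Affymetrix porcine arrays, per the labels. The deposited values are log2 signals, judged from their range (2.87 to 14.92) and equal array medians; how the authors normalized them, and with what software, is not given in the sources used here. They were used as deposited. Of 24123 probe sets 124 were controls. Names came from the platform annotation, which can be old: 10069 probe sets had 1 symbol, 198 several and 13732 none. Gene positions are RefSeq's, by Entrez identifier; probes were not aligned.

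Tests used limma 3.58.1 under R 4.3.3 (lmFit, eBayes; 1 coefficient for each of 4 cells of group and sex; 12 residual and 3.28 prior degrees of freedom), two-sided, with Benjamini-Hochberg adjustment over 23999 probe sets and a threshold of 0.05. The difference between MI and sham is the mean of those in females and males. The fit of set B alone held group without sex. SDs are between animals, and the number of arrays limits the precision. The fit was tested on simulated data. Members and gene lists were chosen with earlier results of these data known. The brightest probe set, by mean over 16 arrays, stood for a gene. Named were all probe sets of the members; of each list the genes that passed, or otherwise the 2 with the lowest p, with exceptions marked; and for PC and PDK4 the 5 genes with the highest and the 3 with the lowest correlation. Animal numbers were not taken as pairs in the main fit. Deviations of same-numbered MI and sham animals correlated at over 0.1 in 4 of 8 numbers (range -0.07 to 0.456). Differently numbered animals were not compared and the spike-in set was not removed, so these values cannot decide whether numbers paired animals. Alternatives covered covariates, the number as a block, quantile normalization, median centring, filters on dim probe sets, an offset of 32, eBayes with trend, array weights, the spike-in sets and left-out animals. The analyses of set B alone, of the set by group interaction, of the set block without MI 7, and of left-out animals within set A were added after seeing the data.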

Additional observations from a re-analysis of the deposited data

Results flagged for a closer look

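In the brighter probe set of PDK3, 1 animal of each group stood apart below the other 7 by Dixon's test. MI 3 was at 6.89 and Sham 7 at 6.49, against group medians of 7.28 and 7.31. Such a test over many probe sets and groups is met by chance in some of them.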

How the results depend on the processing

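PC passed in 40 of 41 alternatives; the exception was set B alone (-0.28, limma adjusted p = 0.53). With each animal left out its difference was -0.60 to -0.51. PDK4 passed only within set A, with and without left-out animals; over all animals, leaving out each in turn gave 0.45 to 0.88 and 0.56 to 1.06, with 0 of 16 passing at either probe set. The mean over probe sets gave 0.78 for PDK4 (adjusted p = 0.269). Members passing were 1, but 3 in set A and 0 in set B.

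Several differences changed sign. PDHB was -0.027 with array weights, -0.0066 with the set block, -0.072 in set A and -0.045 with the set block and without MI 7 (left-out animals -0.053 to 0.060, negative without Sham 7 or Sham 8). The brighter probe set of PDK3 was -0.0065 with array weights (left-out animals -0.042 to 0.13, negative without Sham 7). In set B alone PDHA1 was 0.21 and DLAT 0.037. PDK4 was -0.061 and -0.20 there, against 0.71 and 0.85 over all animals. The cause was not tested.

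Over all probe sets 2527 passed: 993 among those above background and 654 among the 16000 brightest, each with fewer tested, 1123 at an adjusted p under 0.01, 1 in set B alone, and 2045 to 2537 with an animal left out. In females 685 passed (376 to 710 with an animal left out, the lowest counts without Sham 1, Sham 3, Sham 5 or MI 7), in males 816 (415 to 950, the lowest without MI 3, MI 4, MI 5, Sham 4, Sham 6 or Sham 8), and between females and males 14 (13 to 18).

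The animal number as a replicate block gave 2645 probe sets for MI against sham, with PC at -0.57 (adjusted p = 0.00499). Within females, within males and between the sexes the block left 3, 1 and 0 probe sets. With it PC in males no longer passed (-0.70, adjusted p = 0.0938), and in females it was -0.43 (adjusted p = 0.263). Of the 8 probe sets none changed its call in the comparison of all MI with all sham animals. The smallest difference that 8 animals a group can show is larger for PDK4 than for PC, by the spreads given, and values below 4.99 are near background.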

Other observations

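Among the lists tied to PDK4, some genes followed it between animals of the same group and sex more closely than others; they are named after their values were seen, as descriptions over 16 arrays. ANGPTL4, a secreted inhibitor of lipoprotein lipase, had r = 0.666 with PDK4 (0.611 with the spike-in set removed), and TXNIP, which restrains glucose uptake, 0.659 (0.593). Most of the measured PPAR target genes of fatty acid use had a negative r instead, though not most with the spike-in set removed. Among them were ACADL at -0.554 (-0.475), HADHA at -0.493 (-0.48), HADHB at -0.493 (-0.399) and UCP3 at -0.474 (-0.37). INSR, the insulin receptor, had -0.725 (-0.675), at a mean signal below background. PPARG, the listed regulator that rose after infarction, had only 0.296 (0.267). PPARGC1A, a coactivator of mitochondrial genes and of PDK4, had -0.466 (-0.549).

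PPARGC1A was at 10.04 ± 0.44 in MI and 10.33 ± 0.27 in sham animals (SD, n = 8 each; difference -0.29, limma adjusted p = 0.36). Within set A the difference was -0.69 (adjusted p = 0.00795), and PPARG passed there too with 0.85 (adjusted p = 0.0258). Any link of these differences to that of PDK4 in set A was not tested. The test of the MI effect between the sets covered all probe sets, and its value for PPARGC1A is not given here.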
